A study of Mus musculus with 6 samples.

Results

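The genes described here are 10 secreted growth and angiogenic factors that macrophages can make: Vegfa, Thbs1, Hbegf, Areg, Ereg, Pdgfa, Pdgfb, Igf1, Hgf and Osm. They were chosen by name, by matching the Ensembl identifiers of the count table to these gene symbols, and all 10 were found among the 55401 rows. RNA was sequenced from F4/80+ cells taken out of mouse liver tumours, F4/80 being a surface protein used to sort macrophages. Both groups carried orthotopic tumours of Hepa 1-6, a mouse hepatoma line, grown in the right liver lobe and harvested 14 days after injection. In the Sms-OE group (3 libraries) the injected cells overexpressed Sms, the gene of spermine synthase, from a lentivirus, so the modified cells were the tumour cells and not the sorted ones. In the Control group (3 libraries) the genotype label is WT Control, and whether those cells carried an empty vector is not stated there. The labels give no mouse strain or age and do not say whether each library came from its own animal, so the p-values rest on sample-to-sample spread that may be technical.

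These factors act between cells. Hbegf, Areg and Ereg are made as membrane proteins, are cut free by proteases such as ADAM17, and activate the EGF receptor family (ERBB). Vegfa drives the growth of blood vessels through Flt1 and Kdr, and Thbs1, thrombospondin 1, is a matrix protein that inhibits vessel growth and helps to activate TGF-beta. Pdgfa and Pdgfb act on mesenchymal cells, Igf1 acts through Igf1r, Hgf acts on hepatocytes through Met, and Osm, oncostatin M, is a cytokine of the IL-6 family. Tumour macrophages are known as a source of several of them.

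Library totals were between 49833764 and 51123047 estimated counts in Sms-OE and between 51583985 and 58154006 in Control. Macrophage markers (12 genes, among them Adgre1, the gene of F4/80, and Csf1r) summed to between 7363 and 8586 counts scaled to library size (CPM) in Sms-OE and between 7153 and 7315 CPM in Control, with 3 higher and 3 lower in Sms-OE, and none was at 0. Markers of Kupffer cells, the resident liver macrophages, summed to between 403 and 544 CPM in Sms-OE and between 214 and 235 CPM in Control, with 8 of 9 higher. Their part in the results on the factors was not tested. The marker lists are not fully separate: Marco is in the macrophage and Kupffer lists, and Cdh5 in the Kupffer and endothelial lists. The sorted cells also held RNA of other cell types. Neutrophil markers summed to between 4444 and 6367 CPM in Sms-OE and between 5480 and 8034 CPM in Control, and eosinophil markers to between 440 and 691 CPM in Sms-OE and between 353 and 675 CPM in Control. Mast cell and basophil markers summed to between 1157 and 1365 CPM in Sms-OE and between 833 and 857 CPM in Control (1 of 10 higher, none lower), and dendritic cell markers to between 559 and 613 CPM in Sms-OE and between 729 and 903 CPM in Control (1 of 8 higher, 4 lower). These 2 sums, like the Kupffer sum, did not overlap between the groups. The median log2 fold change was -0.0012 for the mast cell and basophil markers, so their sum does not stand for the typical marker. It was -0.53 for the dendritic cell markers and 1.33 for the Kupffer markers. The part of mast cells, basophils and dendritic cells in the results was not tested either. Globin RNA stood apart in Sms-OE replicates 2 and 3, at 0.492% and 0.521% of counts, against at most 0.0228% in the other libraries, and these 2 are called haemoglobin-rich here. Without both, 1 Sms-OE library is left, which is then assumed to vary like the Control libraries. Mitochondrial genes took 3.12%, 2.42% and 2.16% of counts in Sms-OE, against 4.99%, 5.78% and 7.13% in Control, so this sign of RNA quality separated the groups completely. With mitochondrial and red cell rows left out of the table, Igf1 remained at -0.57 on the log2 scale (adjusted p = 0.0419), and 1 member passed. Leaving out these rows changes little but the scaling of the other genes, so it cannot test the part of RNA quality or red cells. In such bulk samples, fewer cells of a type and less RNA per cell cannot be told apart.

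The factors covered a wide range of levels. On a scale that allows comparison between genes, TPM (counts divided by the length of the union of a gene's exons and scaled within a library), Thbs1 averaged 2307 TPM over the 6 libraries, Osm 816 TPM and Vegfa 427 TPM. In every library Thbs1 ranked between 41 and 69 among all rows of the table, Osm between 155 and 232, and Vegfa between 301 and 479. Hbegf averaged 32.0 TPM and Hgf 10.8 TPM. Below them lay Pdgfb at 7.91 TPM, Areg at 5.25 TPM, Igf1 at 5.02 TPM, Pdgfa at 3.69 TPM, and Ereg at 0.190 TPM. The ranges over the 6 libraries did not overlap between Thbs1, Osm, Vegfa, Hbegf and Hgf, nor between Pdgfa and Ereg. The ranges of Hgf, Pdgfb, Areg, Igf1 and Pdgfa overlapped from each gene to the next, so the order of neighbours among these 5 was not larger than the spread. All Hgf values, from 6.04 TPM up, lay above those of Igf1 (at most 5.82 TPM) and Pdgfa (at most 5.23 TPM). With the longest transcript as the length, Igf1 at 5.71 TPM and Pdgfa at 4.52 TPM stood above Areg at 4.25 TPM.

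**Figure D1:**
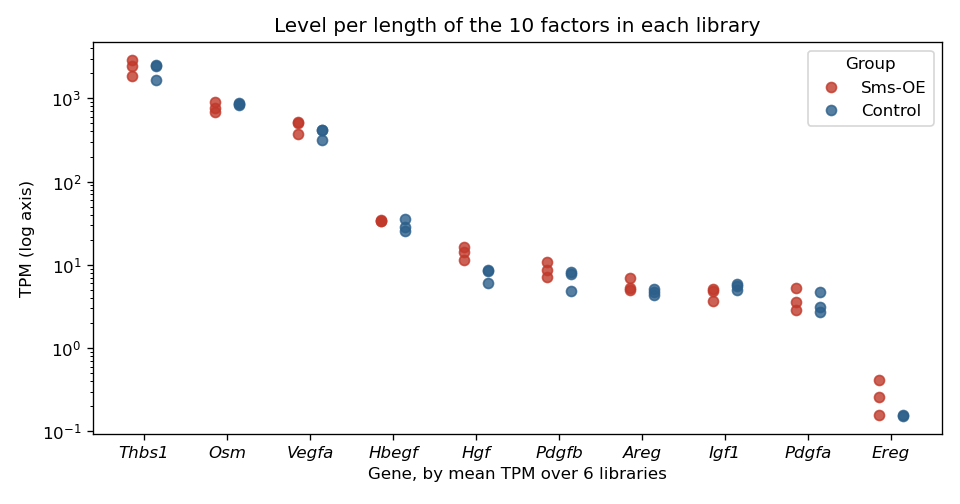
Level of each factor in TPM (log axis) in every library, with Sms-OE points left of Control points and genes ordered by their mean. Thbs1, Osm and Vegfa stand highest, the lowest of their values being 314 TPM for Vegfa, and Ereg is at most 0.412 TPM, with Control replicate 1 (0 counts of Ereg) not drawn.

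Between the groups most factors gave no difference past the threshold, which with 3 libraries a group does not show that they were equal. Igf1 was the only member to pass the test, lower in Sms-OE, and none was higher. That is 1 of 10 members (edgeR's quasi-likelihood test, adjusted p under 0.05 over all 18277 genes tested). Of all tested genes 26.9% passed, with 12.5% of all tested genes higher and 14.3% lower. At an unadjusted p under 0.05 Hgf was higher, and Igf1 and Osm were lower. The DESeq2 Wald test called these same 3 genes, beside 5613 of all 18269 genes it tested. With limma-voom Igf1 and Osm passed, beside 5175 of all 18277 genes. The share of all genes at an unadjusted p under 0.05 is not given here, and nothing particular to the members is read from these counts. All 10 passed the filter on low counts. The median log2 fold change of the members was -0.05, beside -0.00060 for all tested genes. The CPM values of the groups did not overlap for 1 member, again Igf1, while 44.1% of all tested genes had groups that did not overlap (20.8% with Sms-OE above, 23.3% below).

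**Figure D2:**
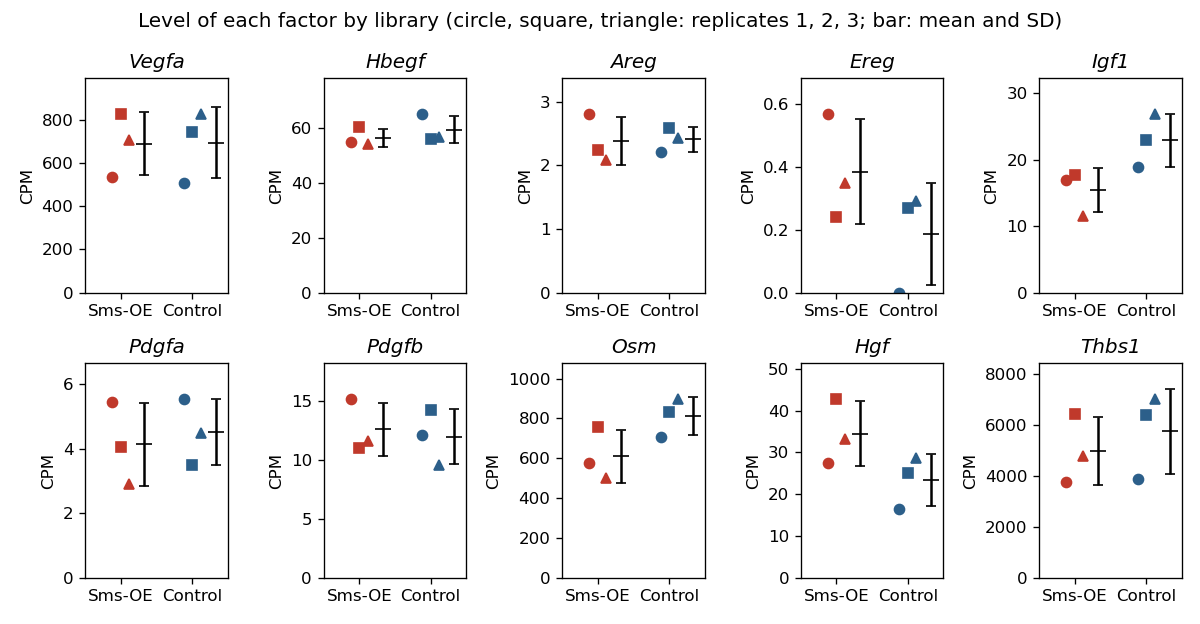
CPM of each factor in every library (circle, square and triangle are replicates 1, 2 and 3), Sms-OE left and Control right, with the mean and SD beside the points. Igf1 is the gene whose Sms-OE points, 11.6 to 17.7 CPM, all lie below the Control points, 18.9 to 26.9 CPM.

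The DNA just before the start sites is shown for 3 factors, namely Igf1, the called one, Vegfa, the most abundant of those with a promoter in the RefSeq table (5 of 10 members matched), and Areg, a low one. Each run is the 250 bases before a RefSeq start site in GRCm38.p6, 5′ to 3′ on the gene's strand: Igf1 on chr10:87860861-87861110 (plus strand), Vegfa on chr17:46032378-46032627 (minus strand) and Areg on chr5:91139349-91139598 (plus strand). Capitals mark letters of 4 motifs searched on both strands, ACGTG (core of the hypoxia response element), GGGCGG (GC box), TGANTCA (AP-1-like, with any base allowed at N) and TGACGTCA (cAMP response element).
Igf1: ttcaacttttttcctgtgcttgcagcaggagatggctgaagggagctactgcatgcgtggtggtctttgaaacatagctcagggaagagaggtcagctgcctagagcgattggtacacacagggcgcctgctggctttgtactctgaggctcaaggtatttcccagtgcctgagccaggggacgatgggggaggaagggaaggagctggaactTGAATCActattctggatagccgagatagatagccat
Vegfa: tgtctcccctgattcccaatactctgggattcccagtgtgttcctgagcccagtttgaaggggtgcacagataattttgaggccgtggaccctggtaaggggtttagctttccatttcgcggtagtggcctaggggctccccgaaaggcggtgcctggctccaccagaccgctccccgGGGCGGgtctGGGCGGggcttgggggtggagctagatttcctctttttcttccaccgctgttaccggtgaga
Areg: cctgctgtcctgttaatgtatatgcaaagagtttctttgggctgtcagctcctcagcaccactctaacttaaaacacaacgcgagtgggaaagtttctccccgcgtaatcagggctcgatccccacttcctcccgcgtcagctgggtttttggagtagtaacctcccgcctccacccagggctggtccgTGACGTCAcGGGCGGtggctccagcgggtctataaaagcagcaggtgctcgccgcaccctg
The Igf1 window lies inside the annotated gene (87858265 to 87937042). It held 1 match to the AP-1-like pattern, with A at N, beginning 37 bases before the start site. Letters of this pattern, with any base at N, occur in 6.75% of all 32851 such windows in the table. The Vegfa window held 2 GC boxes, beginning 72 and 62 bases before the start, and 32.7% of windows hold at least 1. The Areg window held 1 cAMP response element at 61 bases, with letters found in 1.55% of windows, and 1 GC box at 52 bases. The hypoxia core was not among the letters of these 3 windows. A second RefSeq start of Vegfa has its window on chr17:46025164-46025413, inside the annotated gene (46016993 to 46032369) and not upstream of it. That window held 1 match to the core 211 bases before the second start and 1 GC box at 158 bases. The core's letters occur in 16.6% of all windows. These matches are a description of letters in the window.

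Among the ERBB ligands, Hbegf, which in mice lies on chromosome 18 (36504927 to 36515805, minus strand, GRCm38), was the most abundant. It stood at 55.1, 60.4 and 54.2 CPM in Sms-OE, against 65.3, 56.3 and 57.0 CPM in Control. The groups overlapped, with Control replicate 1 the highest library. Its log2 fold change was -0.07 ± 0.093 (SE, adjusted p = 0.611 by edgeR), and the 95% interval of the fold ran from 0.823 to 1.10, the narrowest among the members.

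Areg, amphiregulin, is a ligand linked to tissue repair, and its gene (chromosome 5, 91139599 to 91148432, plus strand) is near that of Ereg. It was at 2.81, 2.25 and 2.09 CPM in Sms-OE, against 2.20, 2.60 and 2.44 CPM in Control. Sms-OE replicate 1 was the highest library and Sms-OE replicate 3 the lowest, so the groups overlapped fully. The log2 fold change was -0.02 ± 0.25 (SE, adjusted p = 0.967), with an interval of the fold from 0.674 to 1.45. Ereg, epiregulin (chromosome 5, 91074622 to 91093646), was close to undetected: 30, 12 and 18 counts in Sms-OE, against 0, 15 and 14 counts in Control. The groups overlapped, and the interval of its fold, 0.432 to 9.99, leaves its direction undetermined at this depth (adjusted p = 0.490). An antisense gene, Gm19610, shares 141 bases of exon with Ereg and had no count.

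Of the other ERBB ligands, 1 of 6 tested rose and none fell (median log2 fold change -0.22). Nrg1, neuregulin 1, which binds ERBB3 and ERBB4, was at 12.1, 8.37 and 10.8 CPM in Sms-OE, against 5.79, 5.86 and 6.29 CPM in Control, so every Sms-OE library lay above every Control library. It rose 1.75-fold (log2 0.80 ± 0.18, adjusted p = 0.00869). Tgfa, the other ligand above 5 CPM, gave -0.09 ± 0.29 and did not pass. The receptors Egfr, Erbb2 and Erbb3 were at 4.10, 1.60 and 2.96 CPM in Sms-OE and at 4.93, 1.41 and 4.01 CPM in Control. None of the 3 passed, also at an unadjusted p under 0.05, in DESeq2 or in limma-voom. Erbb4, with no count in Sms-OE and 0.261 CPM in Control, was not tested.

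Among 11 genes of ligand shedding and ERBB feedback, 3 rose and none fell (median 0.30). Rhbdf2, iRhom2, which brings the sheddase ADAM17 to the cell surface, rose 1.35-fold, to 114 ± 9.0 CPM in Sms-OE, against 84.6 ± 4.8 CPM in Control (SD, n = 3 each, adjusted p = 0.00694). Errfi1, an inhibitor of EGFR signalling, and Cbl, a ubiquitin ligase that acts on EGFR, had log2 fold changes of 0.34 ± 0.10 and 0.36 ± 0.093 (SE, adjusted p = 0.0368 and 0.0187). With offsets for transcript length and GC, the Cbl value was -0.06 (adjusted p = 0.635), the opposite direction. Cbl was also lost without Control replicate 1 or 3, Errfi1 without Sms-OE replicate 1 or 2 or Control replicate 2 or 3 and with no low-count filter (adjusted p = 0.0540 there), and all 3 genes without both haemoglobin-rich libraries (adjusted p up to 0.147 there). Adam17 itself, at 144 ± 0.76 CPM in Sms-OE and 129 ± 12 CPM in Control, did not pass (adjusted p = 0.207).

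Vegfa (chromosome 17, 46016993 to 46032369, minus strand) did not differ between the groups beyond the spread. It was at 537, 826 and 708 CPM in Sms-OE, against 510, 744 and 828 CPM in Control. Replicate 1 was the lowest library in both groups, and the groups overlapped over nearly their whole range. The means were 690.5 ± 145 and 694 ± 165 CPM (SD, n = 3 each), with a log2 fold change of -0.01 ± 0.20 (SE, adjusted p = 0.985). The 95% interval of the fold was 0.734 to 1.35. The other VEGF genes were low, with Vegfb at 3.17 and Vegfc at 0.930 CPM in Sms-OE and 4.03 and 1.15 CPM in Control. Of the 3 tested besides Vegfa none passed, also at an unadjusted p under 0.05, in DESeq2 or in limma-voom.

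The receptors of VEGF were lower: 4 of 5 tested fell and none rose, with a median log2 fold change of -0.86. Flt1, VEGFR1, was at 21.4, 29.7 and 19.7 CPM in Sms-OE, against 74.3, 71.1 and 60.5 CPM in Control, a 2.91-fold fall (log2 -1.54 ± 0.15, adjusted p = 0.00026). Kdr, VEGFR2, was at 3.76, 4.10 and 3.11 CPM in Sms-OE, against 14.1, 8.97 and 8.67 CPM in Control, a 2.89-fold fall (adjusted p = 0.00147). For both genes every Sms-OE library lay below every Control library, and the call held under all 18 alternatives. Flt4, VEGFR3, fell 1.82-fold and the co-receptor Nrp2 1.45-fold (adjusted p = 0.0255 and 0.0160), while Nrp1 gave 0.10 ± 0.14 and did not pass. Flt4 was lost on leaving out Sms-OE replicate 2 or 3 or Control replicate 1 or 2 (adjusted p up to 0.107), and without both haemoglobin-rich libraries (adjusted p = 0.236). Nrp2 was lost without Sms-OE replicate 3 or Control replicate 1 and with library size alone as the scaling (adjusted p up to 0.0574), and without both haemoglobin-rich libraries (adjusted p = 0.262).

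Endothelial cells express these receptors strongly, and their markers moved too. Of 10 endothelial markers 5 fell and 1 rose, with a median log2 fold change of -0.94, and their sum was between 122 and 164 CPM in Sms-OE and between 150 and 171 CPM in Control. None of the 10 was at 0 in all libraries. Kdr and Tek, the angiopoietin receptor, are among these markers as well as among the genes counted here. Cdh5 is also among the Kupffer cell markers. The most abundant of the markers, Pecam1, gave -0.01 ± 0.10 and did not pass. The part of endothelial RNA in the receptor values was not tested.

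Genes that sense oxygen or act on Vegfa RNA moved in both directions, 4 higher and 2 lower of 11 (median 0.05). Hif1a, the oxygen-regulated subunit of the factor that switches on Vegfa in hypoxia, was at 339, 339 and 357 CPM in Sms-OE, against 418, 460 and 459 CPM in Control, and fell 1.29-fold (adjusted p = 0.0127). The prolyl hydroxylases Egln2 and Egln3, which mark HIF for destruction, rose by log2 fold changes of 0.46 ± 0.099 and 0.42 ± 0.096 (adjusted p = 0.00817 and 0.00965). Elavl1, HuR, an RNA-binding protein known to stabilise Vegfa mRNA, fell by 0.29 ± 0.079 on the log2 scale (adjusted p = 0.0236). The Hif1a, Egln2 and Egln3 calls were lost without Control replicate 2, and that of Elavl1 with library size alone as the scaling and without Sms-OE replicate 3 or Control replicate 1 or 2. All 4 were lost without both haemoglobin-rich libraries (adjusted p from 0.0841 to 0.186).

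Thbs1 (chromosome 2, 118111876 to 118127133, plus strand) was at 3770, 6415 and 4754 CPM in Sms-OE, against 3851, 6370 and 7007 CPM in Control. As for Vegfa, both replicates 1 were low, and the groups overlapped. The means were 4980 ± 1337 and 5742 ± 1669 CPM (SD, n = 3 each), the log2 fold change was -0.21 ± 0.25 (SE, adjusted p = 0.589), and the fold's interval ran from 0.590 to 1.27. Single libraries moved this value: it was -0.045 without Sms-OE replicate 1, -0.050 without Control replicate 3, -0.44 without Sms-OE replicate 2 and -0.43 without Control replicate 1. It was -0.61 without both haemoglobin-rich libraries, and passed in none of these settings (adjusted p from 0.171 to 0.924). A long non-coding gene on the other strand, Gm29233, shares 208 bases of exon with Thbs1 and was at 4.65 CPM in Sms-OE and 6.08 CPM in Control. Of 9 other thrombospondins and receptors, 1 rose and none fell by edgeR (median 0.06), while DESeq2 and limma-voom each also called 1 lower, Cd36. Itgav, the integrin alpha V chain, rose by 0.43 ± 0.090 on the log2 scale (adjusted p = 0.00672), and by 0.23 once offsets for length and GC were used, a value that missed the threshold (adjusted p = 0.0721). Cd36, the receptor through which Thbs1 inhibits vessel growth, was at 72.4, 66.4 and 34.1 CPM in Sms-OE, against 108, 91.8 and 84.0 CPM in Control. The groups did not overlap, but Cd36 did not pass in edgeR (log2 -0.72 ± 0.26, adjusted p = 0.0821). It passed as lower in the DESeq2 Wald test (adjusted p = 0.0094), in limma-voom (adjusted p = 0.0229), and in edgeR without Sms-OE replicate 1 or 3 (adjusted p = 0.0483 and 0.0363). Cd47, the receptor that gives a signal against phagocytosis, gave -0.07 ± 0.089 and did not pass.

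Vegfa and Thbs1 varied together from library to library (Pearson r = 0.951 of log2 CPM over the 6 libraries, a description of libraries that share depth and cell mixture). The eosinophil markers had a like order of libraries. The sum of these 5 markers, mostly Ccr3, the eotaxin receptor, and Siglecf, was 440, 691 and 564 CPM in Sms-OE replicates 1 to 3, and 353, 563 and 675 CPM in Control replicates 1 to 3. For Vegfa and this sum Pearson's r was 0.975 and Spearman's rho 0.886 (n = 6, two-sided exact permutation p = 0.00556 and 0.0333). Neither held after adjustment over the 130 relations of 10 members with 13 marker lists (adjusted p = 0.271 and 0.361). At an unadjusted p under 0.05, 17 of the 130 Pearson relations passed, and 0 passed after adjustment. Of the 17, 6 were of Hgf, 3 of Igf1, 2 each of Osm and Ereg, and 1 each of Vegfa, Thbs1, Hbegf and Areg. That of Hbegf was with markers of T, NK and innate lymphoid cells (r = -0.90, exact permutation p = 0.00694, adjusted p = 0.271). For Vegfa and the eosinophil sum, r was 0.960 without the 2 libraries farthest from the median, both replicates 1. With the group means taken out it was 0.990. For Thbs1, r was 0.890 and rho 0.829 (exact permutation p = 0.0194 and 0.0583, adjusted p = 0.316 and 0.506). Without those 2 libraries its r was 0.649, so that relation rested on them in part. The summed macrophage markers gave r of -0.26 with Vegfa and -0.36 with Thbs1, which missed the threshold (exact permutation p = 0.688 and 0.521). The neutrophil markers gave r of 0.495 with Vegfa and 0.688 with Thbs1 (exact permutation p = 0.356 and 0.114). Their rho was 0.829 and 0.771 (exact permutation p = 0.0583 and 0.103). Without replicates 3 of both groups, the farthest for this sum, r was 0.988 and 0.987. The part of eosinophil or neutrophil RNA in either gene was not tested. By likeness of log2 CPM over the 6 libraries, among 10302 other genes with a mean of at least 5 CPM, the genes nearest to Vegfa were Siglecg (r = 0.998) and Cat (r = 0.997), and those nearest to Thbs1 were Sytl1 (r = 0.994) and Gapt (r = 0.991).

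**Figure D3:**
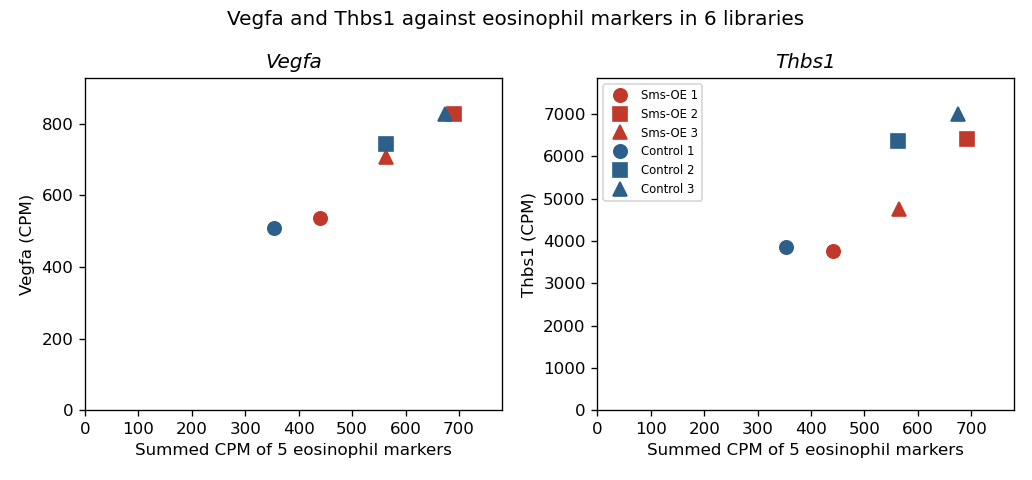
CPM of Vegfa (left) and Thbs1 (right) against the summed CPM of 5 eosinophil markers in each of the 6 libraries, red for Sms-OE and blue for Control. Both replicates 1 lie lowest on both axes, Vegfa at 537 (Sms-OE) and 510 CPM (Control), and the colours are mixed along the trend.

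Pdgfa (chromosome 5, 138976014 to 138997370, minus strand) was at 5.46, 4.06 and 2.90 CPM in Sms-OE, against 5.54, 3.51 and 4.50 CPM in Control. Both replicates 1 were highest in their groups, and the groups overlapped (log2 -0.13 ± 0.27, adjusted p = 0.778, fold interval 0.600 to 1.40). Its exons share 813 bases with 6330403L08Rik on the other strand, which was at 1.14 CPM in Sms-OE and 1.10 CPM in Control. Pdgfb (chromosome 15, 79995874 to 80014977, minus strand) was at 15.1, 11.0 and 11.6 CPM in Sms-OE, against 12.1, 14.2 and 9.52 CPM in Control. The groups overlapped here too (log2 0.07 ± 0.18, adjusted p = 0.802, fold interval 0.795 to 1.40). Pdgfc was at 3.53 ± 0.43 and 3.49 ± 1.4 CPM in Sms-OE and Control (SD, n = 3 each). The receptors Pdgfra and Pdgfrb, which mark mesenchymal cells, were at 1.31 and 1.67 CPM in Sms-OE and 0.731 and 1.08 CPM in Control. None of these 3 passed, also at an unadjusted p under 0.05, in DESeq2 or in limma-voom. Platelets store PDGF and thrombospondin, and their markers summed to between 49.4 and 71.0 CPM in Sms-OE and between 28.4 and 37.3 CPM in Control. Of the 9 platelet markers 1 rose, Pf4 (adjusted p = 0.00453), and none fell. Their part in the levels of Pdgfa, Pdgfb and Thbs1 was not tested.

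Igf1, insulin-like growth factor 1 (chromosome 10, 87858265 to 87937042, plus strand), was at 17.0, 17.7 and 11.6 CPM in Sms-OE, against 18.9, 23.0 and 26.9 CPM in Control. Every Sms-OE library lay below every Control library. It fell 1.49-fold, to 15.4 ± 3.4 CPM in Sms-OE, against 22.9 ± 4.0 CPM in Control (SD, n = 3 each, log2 -0.57 ± 0.18 SE, adjusted p = 0.0424). The call was close to the threshold. It was lost without Sms-OE replicate 1 or 3 or Control replicate 2 or 3 (adjusted p from 0.0571 to 0.143), and with upper-quartile factors or library size alone as the scaling (adjusted p = 0.0546 and 0.0569), and without both haemoglobin-rich libraries (adjusted p = 0.250), while the fall kept its direction under all 18 alternatives. The liver's hepatocytes make most circulating Igf1, and hepatocyte and hepatoma markers were lower in Sms-OE too (sums of 494 to 744 CPM, against 865 to 1079 CPM in Control), with 8 of 13 lower and none higher. The 8 included Alb and Apoa1, while Afp, Trf, Krt8 and Krt18 did not pass, and Cps1 was at 0 in all Sms-OE libraries. The median log2 fold change of the 13 was -2.05, a larger fall than that of the sum, so the sum does not stand for the typical marker. Igf1 and the summed hepatocyte markers gave r of 0.950 and rho of 0.886 over the 6 libraries (exact permutation p = 0.00833 and 0.0333, adjusted p = 0.271 and 0.361), and r of 0.659 without the 2 farthest libraries, replicates 3 of both groups. Igf1 also had relations with neutrophil markers (r = 0.924, exact permutation p = 0.0236) and with mast cell and basophil markers (r = -0.79, exact permutation p = 0.0444). Neither held after adjustment (adjusted p = 0.341 and 0.361). With the group means taken out, r was 0.876 for hepatocyte, 0.958 for neutrophil and -0.32 for mast cell and basophil markers. Platelet markers gave -0.43 over the 6 libraries and 0.990 with the group means taken out. The part of these cells in the Igf1 value was not tested.

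The receptors for Igf1 and related ligands moved the other way. Of 13 tested genes of the IGF list 4 rose and 1 fell (median 0.05). Igf1r was at 127, 138 and 126 CPM in Sms-OE, against 71.8, 78.2 and 70.9 CPM in Control, and rose 1.77-fold (log2 0.83 ± 0.084, adjusted p = 0.00027). Igf2r, which clears Igf2, rose 1.72-fold (adjusted p = 0.0004), Insr, the insulin receptor, 1.52-fold (adjusted p = 0.00185), and Irs2, an adaptor of these receptors, 1.90-fold (adjusted p = 0.00093). In all 4 genes each Sms-OE library lay above each Control library. With the length and GC offsets the log2 values of Igf1r and Igf2r were 0.41 and 0.47 and still passed, and that of Insr, 0.28, missed the threshold (adjusted p = 0.0524). Igfbp7, a binding protein that endothelial cells make, fell 1.95-fold (adjusted p = 0.00709), and not past the threshold without both haemoglobin-rich libraries (adjusted p = 0.0796). Igfbp4 and Igfbp1, the most abundant binding proteins per length, gave 0.03 ± 0.15 and -0.09 ± 0.28 and did not pass. Igf2 had no count in any library.

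Hgf, hepatocyte growth factor (chromosome 5, 16553495 to 16620152, plus strand), was at 27.6, 42.8 and 33.2 CPM in Sms-OE, against 16.5, 25.1 and 28.8 CPM in Control. The groups overlapped, since Control replicate 3 lay above Sms-OE replicate 1. The means were 34.5 ± 7.7 and 23.4 ± 6.3 CPM (SD, n = 3 each), with a log2 fold change of 0.56 ± 0.22 (SE) that missed the threshold (adjusted p = 0.0848). The 95% interval of the fold, before any adjustment, was 1.05 to 2.06. The DESeq2 Wald test called it (adjusted p = 0.0295), as did edgeR with library size alone (adjusted p = 0.0309). Without both haemoglobin-rich libraries the value was 0.23 (adjusted p = 0.671). A gene on the same strand, Gm43489, shares 484 bases of exon with Hgf and was at 0.402 CPM in Sms-OE and 0.627 CPM in Control. Stellate cells are a known source of Hgf in liver, and stellate and fibroblast markers summed to between 113 and 153 CPM in Sms-OE and between 79.7 and 97.9 CPM in Control, with 3 of 10 tested higher and none lower, and Lrat at 0 in all Sms-OE libraries. Hgf and this sum gave r of 0.502 over the 6 libraries, and -0.33 with the group means taken out (exact permutation p = 0.333 for the first). Hgf had stronger relations with red cell markers (r = 0.877, rho = 0.943, exact permutation p = 0.00417 and 0.0167, adjusted p = 0.271 and 0.310), with Kupffer cell markers (r = 0.808, rho = 0.943, exact permutation p = 0.0153 and 0.0167) and with eosinophil markers (r = 0.832, rho = 0.886, exact permutation p = 0.0403 and 0.0333). Those with platelet markers (r = 0.778) and with mast cell and basophil markers (r = 0.770) were also positive, and that with dendritic cell markers was negative (r = -0.83). None held after adjustment. Without the 2 farthest libraries r was 0.952 for red cells, 0.498 for Kupffer cells and 0.559 for eosinophils. The part of these cells in the Hgf value was not tested.

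Among 8 genes around Hgf, 2 fell and none rose (median -0.14). Met, its receptor, was at 20.5 ± 3.7 CPM in Sms-OE and 18.1 ± 2.8 CPM in Control and did not pass (adjusted p = 0.444). Spint1, HAI-1, an inhibitor of the proteases that activate Hgf, was at 25.1, 19.5 and 20.7 CPM in Sms-OE, against 52.0, 46.1 and 35.7 CPM in Control, a 2.05-fold fall (adjusted p = 0.00137). Plau, urokinase, a protease that can cleave pro-Hgf, was at 42.9, 45.0 and 35.5 CPM in Sms-OE, against 86.0, 80.0 and 71.8 CPM in Control, a 1.93-fold fall (adjusted p = 0.00051). In both genes the groups did not overlap. The Spint1 call was lost without both haemoglobin-rich libraries (adjusted p = 0.0555).

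Osm (chromosome 11, 4236420 to 4241026, plus strand) was at 574, 755 and 498 CPM in Sms-OE, against 708, 832 and 898 CPM in Control. The groups overlapped through Sms-OE replicate 2, which lay above Control replicate 1. The means were 609 ± 132 and 812 ± 96 CPM (SD, n = 3 each), with a log2 fold change of -0.42 ± 0.15 (SE) that missed the threshold (adjusted p = 0.0731; fold interval 0.591 to 0.952 before any adjustment). The DESeq2 Wald test and limma-voom placed it past the threshold (adjusted p = 0.0411 and 0.0258), as did edgeR without Sms-OE replicate 2 (adjusted p = 0.0135). Offsets for length and GC gave -0.27 (adjusted p = 0.236). Neutrophils are a known source of Osm, and the neutrophil sums given above overlapped between the groups, with Control replicate 3 highest and Sms-OE replicate 3 lowest, as for Osm itself. Osm and this sum gave r of 0.905 and rho of 0.886 (exact permutation p = 0.0111 and 0.0333, adjusted p = 0.289 and 0.361), and r of 0.715 without those 2 libraries. Osm also had a relation with hepatocyte and hepatoma markers (r = 0.819, exact permutation p = 0.0417, adjusted p = 0.361). Its r was 0.224 without the same 2 libraries. The part of these cells in the Osm value was not tested. By likeness over the 6 libraries the genes nearest to Osm were Gm8221 (r = 0.993) and AI413582 (r = 0.992), and those nearest to Hbegf were Acad11 (r = 0.987) and Pvt1 (r = 0.958).

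Of the 11 tested genes of the Osm receptors and the IL-6 family, 5 rose and 2 fell (median 0.31). Lif, leukaemia inhibitory factor, the closest relative of Osm, was at 26.4, 26.8 and 23.6 CPM in Sms-OE, against 9.52, 13.3 and 11.3 CPM in Control, a 2.26-fold rise (log2 1.18 ± 0.14, adjusted p = 0.00057) that held under all 18 alternatives. Il6 was at 36.7, 60.4 and 49.9 CPM in Sms-OE, against 76.1, 128 and 158 CPM in Control, a 2.46-fold fall (adjusted p = 0.0162) that was lost without a low-count filter, without Sms-OE replicate 3 and without both haemoglobin-rich libraries (adjusted p from 0.0582 to 0.107). Il11ra1, a receptor of interleukin 11, was at 12.9 ± 0.89 CPM in Sms-OE and 19.6 ± 1.7 CPM in Control (SD, n = 3 each) and fell 1.52-fold (adjusted p = 0.00671, and 0.121 without both haemoglobin-rich libraries). Lif, Il6 and Il11ra1 had groups that did not overlap. Stat3, the transcription factor these receptors switch on, rose 1.48-fold, and Socs3, its feedback inhibitor, rose 1.38-fold (adjusted p = 0.00203 and 0.0064). The receptor chains Lifr and Il6st gave 0.20 ± 0.19 and -0.30 ± 0.11 and did not pass. With the offsets Il6st was at -0.61 and passed as lower (adjusted p = 0.00275), and Lifr was at -0.14. Without Control replicate 1, Lifr was at 0.47 and passed as higher (adjusted p = 0.0473). Osmr, another receptor chain of Osm, was barely present, at 1.97, 0.964 and 0.812 CPM in Sms-OE, against 0.551, 0.430 and 0.479 CPM in Control. It rose by 1.36 ± 0.45 on the log2 scale (adjusted p = 0.0476). That call was lost in 10 of 17 alternatives, among them leaving out any 1 library other than Sms-OE replicate 3 (adjusted p up to 0.223).

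**Figure D4:**
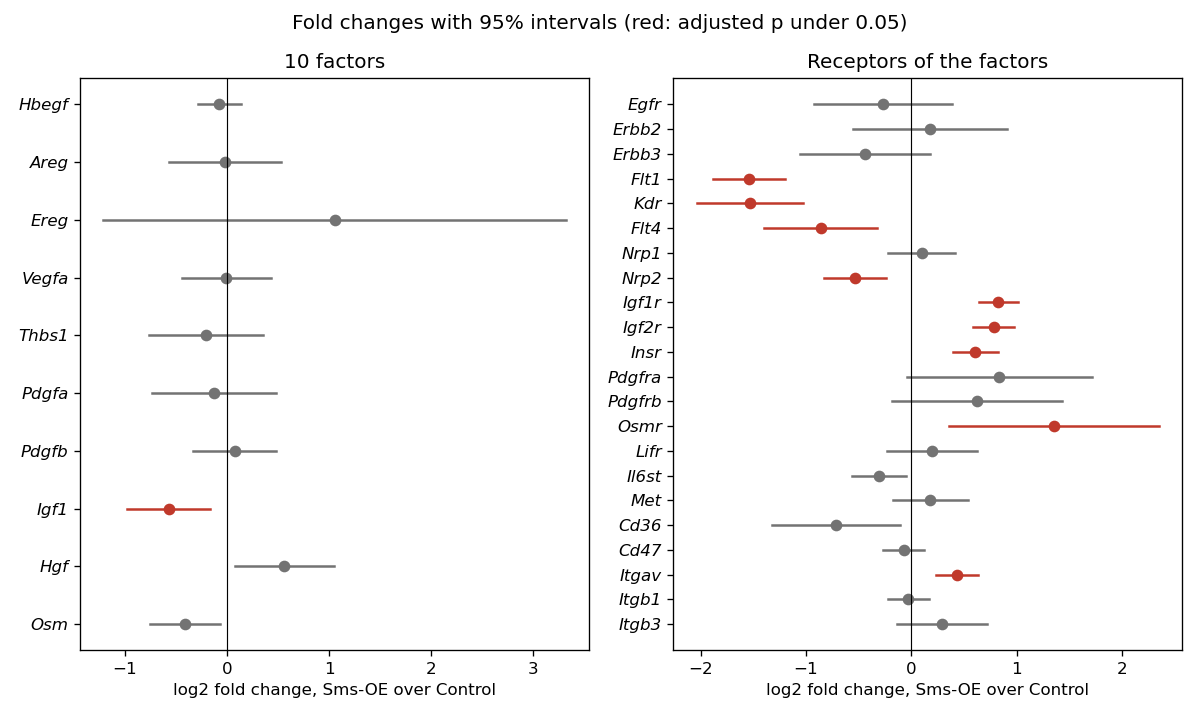
Log2 fold changes (Sms-OE over Control) with 95% intervals for the 10 factors (left) and for receptors of the factors (right), red where the adjusted p is under 0.05. Igf1 is the 1 red factor, while Flt1 and Kdr lie near -1.5 and Igf1r and Igf2r near 0.8 among the receptors.

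Over all pathway lists around the factors, 20 of 105 tested genes rose and 14 fell, with a median log2 fold change of 0.10. That is 32.4% called, 19.0% higher and 13.3% lower, beside 26.9%, 12.5% and 14.3% of all tested genes, and nothing particular to the lists is read from it. The counts of the single lists stand beside the same shares of all genes. In the remaining list, of other angiogenic and growth factors, 2 of 22 rose and 3 fell (median 0.19). Ccn2, connective tissue growth factor, was at 11.4, 7.01 and 6.09 CPM in Sms-OE, against 4.37, 2.99 and 2.88 CPM in Control, and rose 2.39-fold (adjusted p = 0.00855). Bmp2, a bone morphogenetic protein, was at 1.59, 2.09 and 1.53 CPM in Sms-OE, against 3.92, 4.80 and 5.87 CPM in Control, and fell 2.80-fold (adjusted p = 0.00268). Both calls held under all 18 alternatives. Tgfb1, which Thbs1 can help to activate, was at 219 ± 13 CPM in Sms-OE and 193 ± 10.1 CPM in Control and did not pass (adjusted p = 0.166), but passed as higher with the offsets (log2 0.32, adjusted p = 0.0253). Nrros, which anchors latent TGF-beta on myeloid cells, fell by 0.40 ± 0.10 on the log2 scale (adjusted p = 0.0169), and not past the threshold without Sms-OE replicate 3 or Control replicate 1, with library size alone, or without both haemoglobin-rich libraries (adjusted p up to 0.219). Tek fell at a low level, 0.342 CPM in Sms-OE and 1.49 CPM in Control (adjusted p = 0.0198), and not past the threshold without Sms-OE replicate 1 or 3 or Control replicate 1 or 2 (adjusted p up to 0.0702).

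**Figure D5:**
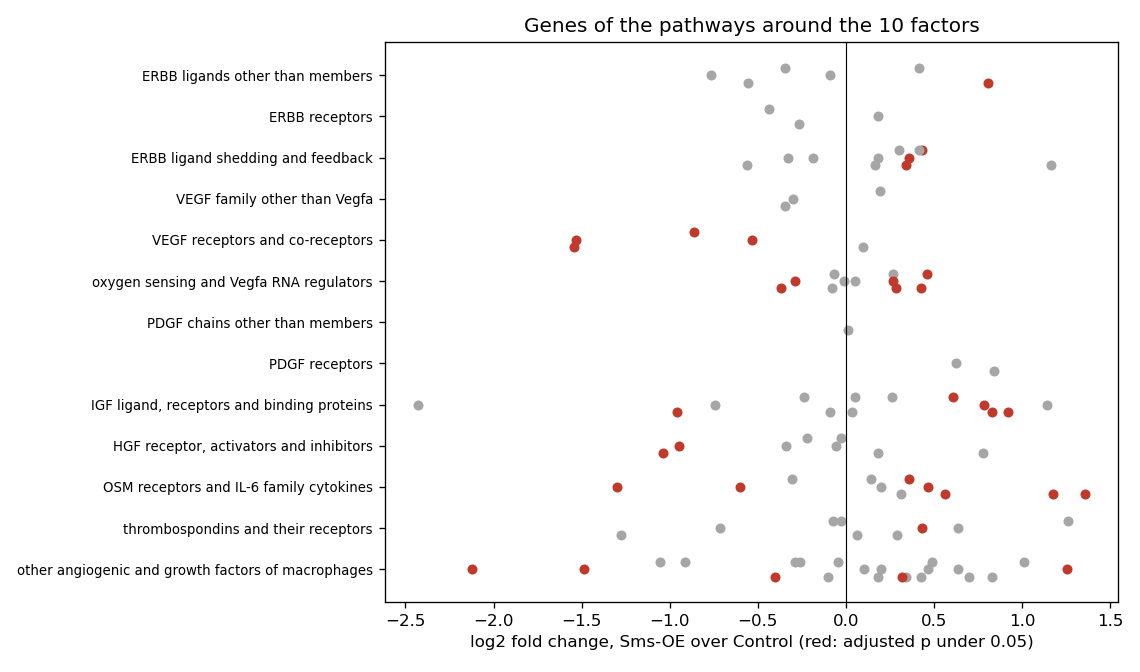
Log2 fold changes (Sms-OE over Control) of the tested genes of each pathway list, 1 point a gene, red where the adjusted p is under 0.05. The VEGF receptors lie mostly left of 0 (4 of 5 lower), while the lists of ERBB ligands and of PDGF chains and receptors are mostly grey.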

How the data were processed

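The authors deposited 1 table of estimated counts, whole numbers with no normalization. The submitters' processing notes name HISAT2 2.2.1, StringTie 2.1.6, cutadapt 1.9, FastQC 0.11.9 and DESeq2. Build, annotation and strand setting: not given in the sources used here. The labels' protocols list dUTP and UDG, which mark strand, but whether counting used it is unknown, so genes overlapping on opposite strands stay uncertain.

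Symbols, positions and lengths came from GENCODE M21 (GRCm38) by Ensembl identifier, for 55141 of 55401 rows, and all 10 members matched. Groups and replicate numbers came from the titles, and columns from the descriptions. Libraries of a group shared equal counts in 3.21% to 3.65% of genes, so none was a copy. Differences were tested with edgeR 4.0.16 (R 4.3.3): filterByExpr, TMM factors, robust glmQLFit and glmQLFTest, Benjamini-Hochberg adjustment over 18277 genes, threshold 0.05. Standard errors and 95% intervals came from the F statistic. CPM use TMM-scaled library sizes, and TPM are scaled within each library, so groups are compared in CPM only. The steps were tested on simulated data with few changed genes and without the globin and mitochondrial differences seen here. That test does not vouch for the scaling or the calls in these libraries.

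The members, lists and markers were chosen with earlier results of these data known. Named genes were the members, their receptors, and, for each list, up to 4 called genes with the smallest p (where none passed, the 2 with the highest CPM); likeness was computed for the 4 members of highest level per length. Other genes named (Adam17, Tgfb1, Il6, the IGF binding proteins, Igf2 and single markers of other cell types) were chosen after their values were seen. Alternatives were DESeq2 1.42.0 (size factors, Wald test), limma-voom (limma 3.58.1) with quality weights, upper-quartile factors, library size alone, other low-count filters, a fit that was not robust, a block for replicate number, offsets for length and GC, stricter and looser thresholds, and leaving out single libraries. Removing both haemoglobin-rich libraries, or mitochondrial and red cell rows, was chosen after seeing the data.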

Additional observations from a re-analysis of the deposited data

How the results depend on the processing

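The member values were recomputed under 18 alternatives: 137 values kept direction and side of the threshold, 28 changed sign, 6 came past the threshold and 8 fell short of it. Depth limited Ereg, with at most 30 counts in a library. The causes of the changes below were not tested.

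The number of members past the threshold, 1 in the report, was 0 with upper-quartile factors, at a threshold of 0.01 and without both haemoglobin-rich libraries, 3 with the DESeq2 Wald test (1 higher, 2 lower) and at a threshold of 0.1 (1 higher, 2 lower), and 2 with limma-voom (2 lower). Leaving out 1 library gave 0 to 2, all of them lower. With library size alone, and with the replicate block, 1 was higher (Hgf) and 0 lower.

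Whether the replicate numbers pair samples was not settled by the check made here, since deviations from means of 3 libraries are tied to each other. Deviations of same-numbered libraries correlated at 0.086, 0.022 and -0.019, and those of other pairs at -0.091 to 0.067. The block for replicate number changed the SE of Vegfa from 0.196 to 0.101 and that of Thbs1 from 0.246 to 0.133. With the block, Igf1 was at -0.58 (adjusted p = 0.0764), Hgf at 0.57 (adjusted p = 0.0230) and Vegfa at 0.00056, while among the other genes named the calls of Errfi1 and Osmr were lost (adjusted p = 0.0512 and 0.0711), Cd36 passed as lower (adjusted p = 0.0138), and 4532 of all genes passed (2117 higher, 2415 lower).

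Members near 0 changed sign. Vegfa was at 0.014 with DESeq2 size factors and in the DESeq2 Wald test, 0.030 with upper-quartile factors, 0.060 with library size alone, 0.023 with the CPM filter and 0.067 with the length and GC offsets. Areg was at 0.00097, 0.0014, 0.015, 0.049, 0.010 and 0.33 in these 6 settings. With the offsets Hbegf was at 0.050, Pdgfa at 0.085 and Pdgfb at -0.015. Without both haemoglobin-rich libraries Areg was at 0.21 and Pdgfa at 0.27. Leaving out 1 library gave -0.19 to 0.14 for Vegfa, -0.16 to 0.064 for Areg, -0.38 to 0.071 for Pdgfa and -0.085 to 0.21 for Pdgfb. None of these passed the threshold.

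Over all genes, 4908 passed, 2293 higher and 2615 lower. Leaving out 1 library gave 3050 (without Control replicate 2) to 4488, with 1366 to 2015 higher and 1684 to 2473 lower. A threshold of 0.01 gave 2296 (1077 and 1219), and leaving out both haemoglobin-rich libraries gave 1384 (690 and 694). With library size alone the split was 2521 higher and 1788 lower. Of the pathway genes 34 passed (20 higher, 14 lower). Leaving out 1 library gave 23 to 31, with 12 to 20 higher and 9 to 14 lower. A threshold of 0.01 gave 20 (13 and 7), and leaving out both haemoglobin-rich libraries 18 (12 and 6). With the longest transcript as length, Hbegf was at 43.2, Osm at 661 and Hgf at 18.1 TPM.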
